A study of Bos taurus with 54 samples.

Results

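The genes described here are 10 genes of the NF-κB pathway, chosen by symbol from the 32637 genes listed in every library of a study of heat stress in cattle blood. They are the feedback inhibitors NFKBIA and TNFAIP3, the nuclear IκB genes NFKBIZ and BCL3, the subunits RELA, REL, RELB, NFKB1 and NFKB2, and the cytokine TNF. All 10 were found in the count files and passed the filter on low counts in both library kits. Whole blood of 15 Holstein male calves was taken in the morning in a thermoneutral room (thermoneutral control) or in the evening, directly after 12 h of heat exposure (heat stress), and 14 of the calves have libraries of both times. The red cells were lysed before RNA was extracted, and libraries were made from the RNA with 2 kits that read the 3′ end of transcripts, SMART-Seq v4 3′ DE of Takara (here Takara) and QuantSeq 3′ of Lexogen (here Lexogen). The comparison used 52 of 54 libraries, with 13 control and 13 heat stress libraries per kit. Each kit had 12 animals with libraries of both times. All controls were morning samples and all heat stress samples evening samples, so time of day and heat exposure cannot be told apart.

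NF-κB factors are dimers of the proteins encoded by RELA, REL, RELB, NFKB1 and NFKB2, and in resting cells they are held in the cytoplasm by inhibitor proteins of the IκB family. Signals from TNF, interleukin-1 or Toll-like receptors activate the IκB kinases, the inhibitor is degraded, and the dimer enters the nucleus. Among the genes it then switches on are its own inhibitors, so transcripts of NFKBIA and TNFAIP3 are widely used as a readout of recent pathway activity in leukocytes, the cells that give most of the RNA of lysed blood.

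Counts on genes ranged from 5140595 to 20699030 per Takara library and from 4516761 to 58521751 per Lexogen library. The highest Lexogen value belonged to the heat stress library of animal 15, which had no Lexogen control. Animal 20 had 1 library per kit, labelled heat stress, and its libraries entered no comparison of the times. The study's sample table numbers the calves without naming the animals. Read in order of animal number, it lists the only sample of animal 20 as a control. On that reading, the time at which animals 7, 15, 23 and 29 lack a kit is also reversed against the labels. Together with animal 20, these are all the calves that lack a library. The other calves have every library, so their rows cannot show which time is which. The study's text also counts more samples before heat exposure than after it, and the labels the reverse. The direction of every difference between the times therefore rests on the labels. Those animals were kept with the times in their labels. The sample numbers in the labels fell into 2 runs, of 8 and 7 animals with a gap between them, and values are also given per run. Markers of blood cell types moved with time as well. In Takara 7 of 8 neutrophil markers, 3 of 6 monocyte markers and 1 of 4 NK cell markers rose, and 4 of 8 T cell markers and 1 of 6 B cell markers fell. None of the 4 platelet markers and 2 erythroid markers tested was called in Takara. In Lexogen 5 of 7 neutrophil markers and 1 of 4 NK cell markers rose, and no marker of the other 5 lists was called. With the animal as a block 0 neutrophil and 0 NK cell markers were called in Lexogen, while in Takara 7 neutrophil, 1 monocyte and 1 NK cell markers rose and 4 T cell and 3 B cell markers fell. The summed neutrophil markers ranged from 4147 to 19453 CPM (counts per 1000000 counts on genes) in Takara controls and from 4481 to 75603 CPM in heat stress, and from 1242 to 7129 CPM and from 1840 to 31380 CPM in Lexogen. Of the erythroid markers, HBA1 was at 0 in all 4 groups. In bulk blood RNA, fewer cells of a type and less RNA per cell cannot be told apart.

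Which of the 10 genes differed between heat stress and thermoneutral control was asked in each kit with the quasi-likelihood test of edgeR across all genes, with Benjamini-Hochberg adjustment and time as the only term. In Takara 6 of the 10 rose (NFKBIA, REL, BCL3, NFKBIZ, TNFAIP3 and RELA) and 0 fell. Of all 12620 genes tested, 18.4% were called higher and 10.5% lower. In Lexogen 3 of the 10 rose (NFKBIA, REL and BCL3) and 0 fell, where 5.09% of 11108 genes were called higher and 0.459% lower. The 10 genes had a median log2 fold change of 0.59 in Takara (all genes tested, -0.05) and of 0.61 in Lexogen (all genes tested, -0.08). The Takara count depends on the scaling of the libraries. With libraries scaled by their total counts alone, the median of all genes moved to -0.27, the calls over all genes changed from 2325 higher and 1321 lower to 1301 higher and 2184 lower, and 4 of the 10 genes were called, all of them higher. With the animal as a replicate block, 4 of the 10 genes rose in Takara (background 14.9% higher) and 0 of the 10 in Lexogen (background 0.45% higher). In that Lexogen fit edgeR gave 3 of the 10 and 1566 of all 11108 genes an unadjusted p under 0.05.

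**Figure D1:**
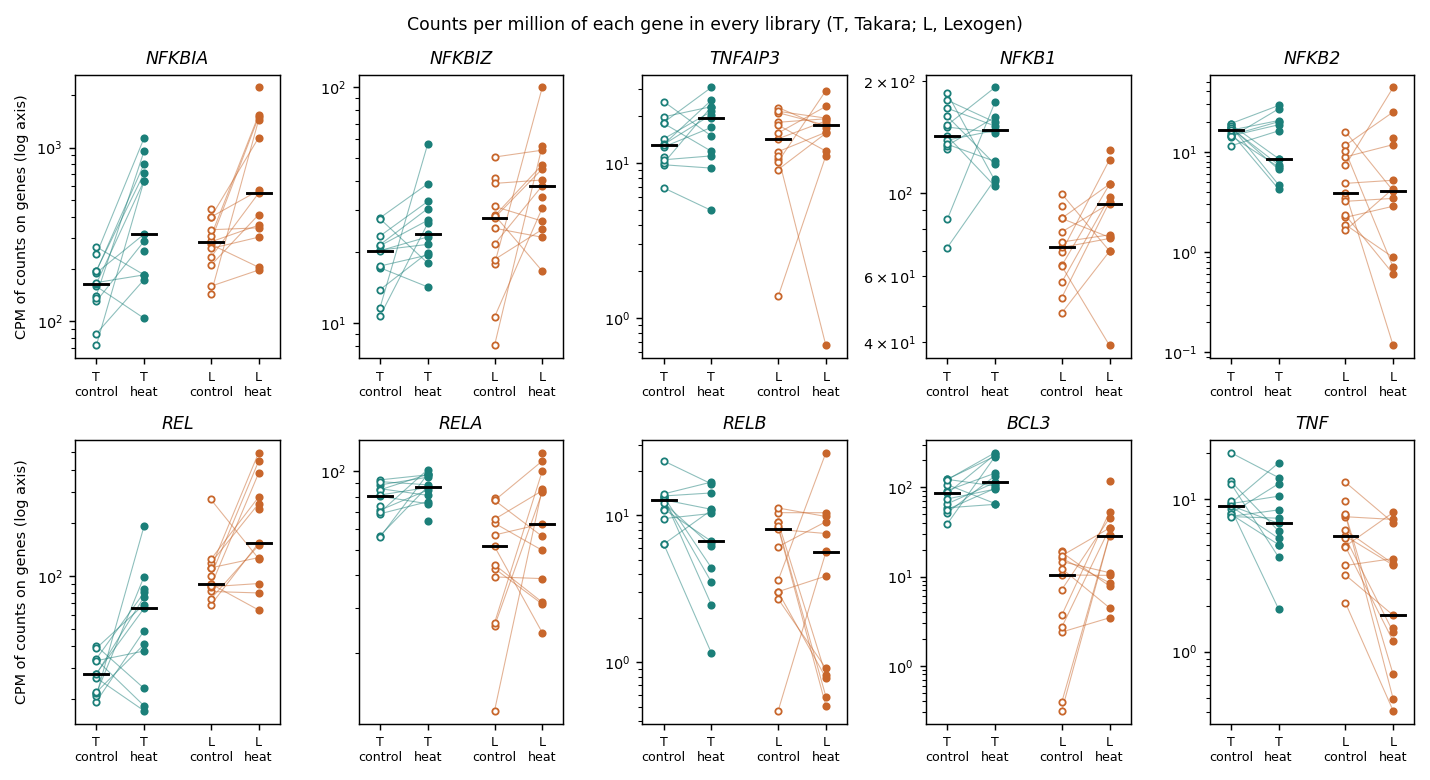
CPM of each of the 10 genes on a log axis, with a point for each library (open, thermoneutral control; filled, heat stress), a thin line joining the 2 libraries of an animal within a kit and a black bar at the median of 13 libraries. The Takara NFKBIA median moved from 165 to 317.5 CPM and the REL median from 27.7 to 65.4 CPM, while control and heat stress libraries overlapped for every gene.

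NFKBIA (chr21:45639614-45643009 in ARS-UCD2.0, as are the positions below), which encodes the inhibitor IκBα, had the largest log2 fold change of the 10 genes in Takara. In Takara controls NFKBIA ranged from 72.8 to 269 CPM with a median of 165, and in heat stress from 104 to 1133 CPM with a median of 317.5. The groups overlapped, but 8 of 13 heat stress libraries lay above the highest control. The log2 fold change was 2.01 (SE 0.38, edgeR adjusted p = 0.000589), and with the animal as a block it was 1.61 (adjusted p = 0.0145). In Lexogen the controls ranged from 144 to 442 CPM with a median of 286.8 and the heat stress libraries from 198 to 2215 CPM with a median of 546, and 7 of 13 heat stress libraries exceeded every control. The Lexogen log2 fold change was 1.64 (SE 0.34, adjusted p = 0.00297), and with the animal as a block it was 1.08 (adjusted p = 0.0907). The size of the difference was not alike in all calves. Within animals, on CPM rescaled by the trimmed mean of M-values (TMM), the ratio of heat stress to control was above 1 in 10 of 12 Takara pairs and 11 of 12 Lexogen pairs. The ratio ran from 0.60 in animal 3 to 11.4 in animal 36 in Takara, with a median of 3.65. In Lexogen it ran from 0.61 to 9.97 in the same 2 animals.

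TNFAIP3 (chr9:75741101-75756741) encodes A20, a ubiquitin-editing enzyme that ends signalling from the TNF receptor. In Takara its median was 13.2 CPM in controls (6.92 to 24.98) and 19.4 CPM in heat stress (4.95 to 30.8). Only 2 heat stress libraries lay above the highest control and 1 lay below the lowest. The log2 fold change was 0.69 (SE 0.26, adjusted p = 0.0438), the weakest call among the 6 genes, and with the animal as a block it was 0.52 (adjusted p = 0.0928). With total counts as library size it was 0.35 (adjusted p = 0.206). The call was also lost when animal 7, 15, 18, 19, 23, 29, 36, 40 or 41 was left out, with adjusted p up to 0.112. In Lexogen TNFAIP3 had medians of 14.4 and 17.6 CPM, with ranges of 1.38 to 22.8 and 0.664 to 29.4 CPM, and the log2 fold change of 0.32 (SE 0.36) was not called (adjusted p = 0.742). The lowest Lexogen value came from the heat stress library of animal 32, with 3 counts.

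NFKBIZ (chr1:46169624-46201254) and BCL3 (chr18:52520139-52529472) encode atypical IκB proteins, which act in the nucleus and bind dimers of the p50 and p52 proteins. NFKBIZ ranged from 10.7 to 27.9 CPM (median 20.3) in Takara controls and from 14.2 to 57.3 CPM (median 23.9) in heat stress. Its Takara log2 fold change was 0.85 (SE 0.24, adjusted p = 0.00958), and 0.69 with the animal as a block (adjusted p = 0.0532). The highest heat stress value was that of animal 18 in both kits, whose Takara level went from 11.6 to 57.3 CPM. In Lexogen NFKBIZ had medians of 27.9 CPM (8.03 to 50.5) and 38.2 CPM (16.6 to 99.7), and a log2 fold change of 0.72 (SE 0.29, adjusted p = 0.17).

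BCL3 ranged from 38.9 to 123 CPM (median 85.2) in Takara controls and from 64.4 to 244 CPM (median 113.1) in heat stress, with 6 of 13 heat stress libraries above the highest control. The Takara log2 fold change of BCL3 was 1.13 (SE 0.27, adjusted p = 0.00335). In Lexogen BCL3 was counted far less, from 0.313 to 19.2 CPM (median 10.4) in controls and from 3.45 to 119.1 CPM (median 28.7) in heat stress. The Lexogen log2 fold change was 1.80 (SE 0.55, adjusted p = 0.0474). This Lexogen call depended on the setting. It was lost with the animal as a block (adjusted p = 0.373), with total counts as library size (adjusted p = 0.0791), and when animal 12, 14, 15, 16, 32, 36 or 40 was left out. The highest Lexogen value of 119.1 CPM was that of the deeply sequenced library of animal 15, and without it the log2 fold change was 1.29 (adjusted p = 0.191). Within animals, on TMM-scaled CPM, Lexogen BCL3 was higher in 2 of 7 pairs of the first run (median ratio 0.79). It was higher in 5 of 5 pairs of the second (median ratio 14.3), whose controls lay between 0.313 and 3.69 CPM. The run by time interaction of Lexogen BCL3 was not called (1.08, SE 1.08, edgeR adjusted p = 0.893).

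Of the subunits, REL had the largest log2 fold change in both kits. REL (chr11:43625547-43666466) encodes c-Rel, a subunit with a transactivation domain that is most abundant in blood and lymphoid cells. In Takara it ranged from 19.4 to 40.1 CPM (median 27.7) in controls and from 17.2 to 192 CPM (median 65.4) in heat stress. Most heat stress libraries, 9 of 13, lay above the highest control, and 2 lay below the lowest. The log2 fold change was 1.61 (SE 0.34, adjusted p = 0.00133), and with the animal as a block it was 1.11 (SE 0.39, adjusted p = 0.0463). In Lexogen REL went from a median of 89.9 CPM (68.5 to 271) to a median of 153 CPM (64.0 to 498), with a log2 fold change of 1.10 (SE 0.29, adjusted p = 0.0202). With the animal as a block the Lexogen log2 fold change of REL was 0.85 (adjusted p = 0.18), and the call was also lost without animal 18, 36 or 40. The REL gene contains the microRNA gene MIR6122. Antisense reads made up 7.34% of the stranded reads on REL in Takara and 0.0746% in Lexogen. Of the 1159 Takara antisense reads, 682 came from the heat stress library of animal 18, which had the highest REL value. With sense counts the Takara log2 fold change of REL was 1.56 (adjusted p = 0.00137).

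RELA (chr29:43830895-43839537) encodes p65, the main transactivating partner of p50. In Takara controls it lay between 55.8 and 92.7 CPM (median 80.2) and in heat stress between 64.2 and 102 CPM (median 87.4), a small shift with low spread. The log2 fold change was 0.48 (SE 0.14, adjusted p = 0.0105). With total counts as library size the RELA value was 0.18 (adjusted p = 0.157). In Lexogen RELA varied more, from 12.0 to 78.9 CPM in controls and from 24.03 to 117.9 CPM in heat stress. The Lexogen log2 fold change of 0.50 (SE 0.28) was close to the Takara value and was not called (adjusted p = 0.372).

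NFKB1, NFKB2 and RELB were not called in either kit. NFKB1 (chr6:22205849-22319260) encodes p105, the precursor of p50. Its Takara medians were 142 CPM in controls (71.5 to 185) and 147 CPM in heat stress (104 to 192), and the log2 fold change was 0.27 (SE 0.14, adjusted p = 0.148), or 0.00 with total counts as library size. In Lexogen the NFKB1 log2 fold change was 0.37 (SE 0.18, adjusted p = 0.27). Of NFKB1, 13236 and 1252 bases are shared with 2 long noncoding RNA genes in the annotation.

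NFKB2 (chr26:23018413-23026096), which encodes p100, the precursor of p52, and RELB (chr18:52695674-52724155), the partner of p52, belong to the noncanonical branch of the pathway. NFKB2 stayed between 11.5 and 19.1 CPM in the 13 Takara controls, but spread from 4.26 to 28.98 CPM in heat stress. In heat stress 7 libraries lay below the lowest control and 4 above the highest, so the groups differed in spread (SD 2.22 and 8.56 CPM) while the log2 fold change was -0.09 (SE 0.20, adjusted p = 0.746). The difference in spread was seen in the values and was not tested. RELB went from a median of 12.8 CPM (6.37 to 23.5) to 6.67 CPM (1.16 to 16.8) in Takara, with 5 heat stress libraries below the lowest control. The RELB log2 fold change was -0.38 (SE 0.25, adjusted p = 0.252). Lexogen counted few reads on both genes, down to 1 read for NFKB2 and 3 reads for RELB. It gave log2 fold changes of 0.76 (SE 0.63, adjusted p = 0.606) and 0.14 (SE 0.57, adjusted p = 0.943). Both Lexogen values changed sign with the animal as a block, to -0.44 for NFKB2 (adjusted p = 0.821) and -0.59 for RELB (adjusted p = 0.784). A long noncoding RNA gene shares 4463 bases with NFKB2, and the sense column held 4.79% more Takara reads on NFKB2 than the unstranded column.

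TNF (chr23:27716170-27718943) encodes a cytokine that both activates the pathway and is made on its order. It was the member with the lowest Lexogen log2 fold change, and it was not called in either kit. In Takara TNF had medians of 9.05 CPM in controls (7.68 to 20.1) and 6.93 CPM in heat stress (1.90 to 17.3). On this unscaled CPM 8 heat stress libraries lay below the lowest control, and fewer did on TMM-scaled CPM. The log2 fold change, with TMM scaling, was -0.17 (SE 0.21, adjusted p = 0.568). With total counts as library size it was -0.34 (adjusted p = 0.272). In Lexogen the medians were 5.72 CPM (2.09 to 12.9) and 1.73 CPM (0.41 to 8.17), and the log2 fold change was -0.96 (SE 0.51, adjusted p = 0.344). Within animals, on TMM-scaled CPM, the TNF ratio was above 1 in 4 of 12 Takara pairs and in 1 of 12 Lexogen pairs. Lexogen TNF counts went down to 3 reads in a library. In the annotation 1556 bases of TNF are shared with a long noncoding RNA gene, and 10.0% of the stranded Takara reads on TNF were antisense.

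**Figure D2:**
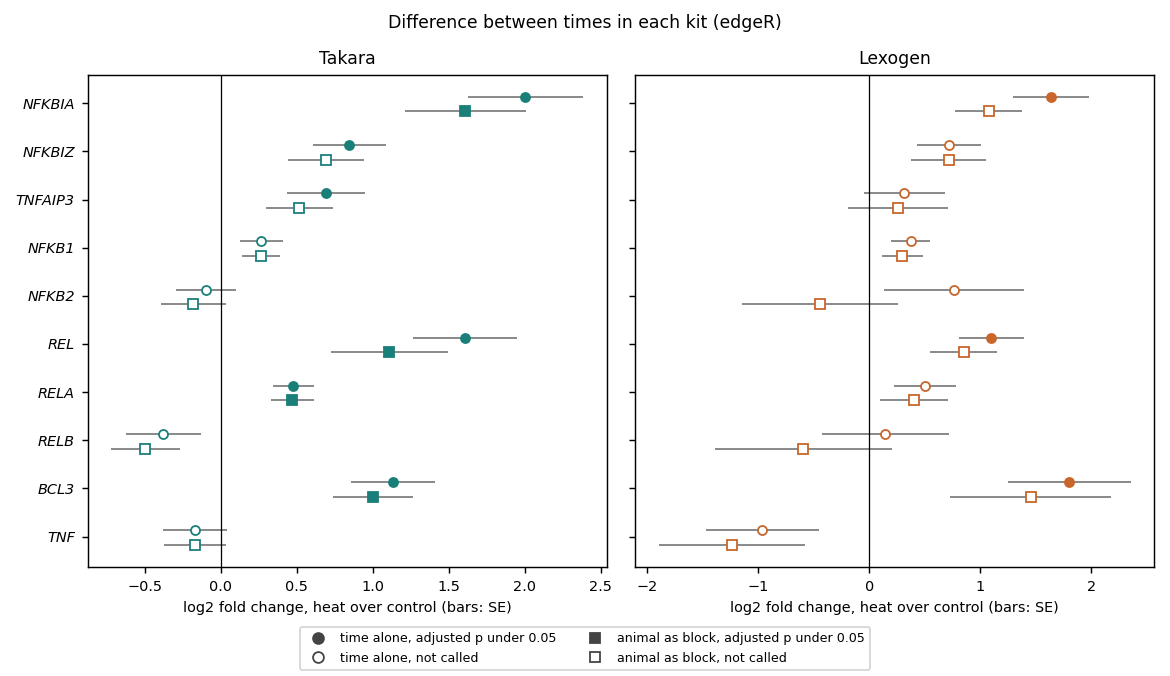
log2 fold change of heat stress over thermoneutral control for the 10 genes in Takara (left) and Lexogen (right), with bars of 1 SE. Circles are the fit with time alone and squares the fit with the animal as a block, filled where the edgeR adjusted p was under 0.05. In Takara 6 circles and 4 squares are filled, and in Lexogen 3 circles and 0 squares.

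The ratio of heat stress to control varied between calves, and several of the 10 genes had low or high ratios in the same calves. Ratios and directions within animals, here and below, are on TMM-scaled CPM. In the 6 Takara pairs of the first run, NFKBIA, NFKBIZ, TNFAIP3, REL and RELA were each higher in heat stress in 6 of 6 animals. In the 6 pairs of the second run they were higher in 4, 4, 2, 3 and 4 animals. These 5 genes were picked for being higher in every pair of the first run, and BCL3 and NFKB1 were higher in 5 of 6 animals in both runs. On unscaled CPM, NFKB1 was higher in only 2 of 6 animals of the first run and 3 of 6 of the second. RELA was higher in 3 of 6 animals of the second run on that scale. Animals 3 and 14, both of the second run, had Takara ratios below 1 for all 5 genes. In animal 3 the ratio was 0.60 for NFKBIA and 0.50 for REL, and in animal 14 it was 0.68 for NFKBIA and 0.57 for REL. At the other end, NFKBIA was 11.4 times and BCL3 7.28 times higher in animal 36, and REL was 14.4 times and NFKBIZ 7.78 times higher in animal 18. Of the 10 genes, between 4 (animals 3 and 14) and 10 (animal 19) were higher in heat stress in a Takara pair.

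Fitted on the first run alone, Takara called the same 6 genes as all libraries together (14.7% of 12791 genes were called higher), with log2 fold changes of 2.08 for NFKBIA, 2.25 for REL, 1.09 for NFKBIZ, 1.06 for BCL3, 1.00 for TNFAIP3 and 0.53 for RELA. Fitted on the second run alone, edgeR called 0 of the 10 genes, with 4.8% of 12661 genes called higher. An unadjusted p under 0.05 was given to 2 of the 10 and to 3475 of all genes. There the values were 1.91 for NFKBIA (adjusted p = 0.0686), 1.23 for BCL3 (adjusted p = 0.0751), 0.79 for REL (adjusted p = 0.287) and 0.20 for TNFAIP3 (adjusted p = 0.796). The difference between the runs was then tested as an interaction of run and time. In Takara 0 of the 10 genes were called by edgeR or DESeq2 (1 had an unadjusted p under 0.05 in either). Over all 13767 genes edgeR called 2.27% and gave 2236 an unadjusted p under 0.05. The largest of the 10 differences was that of REL, at -1.52 (second run minus first, log2, SE 0.63, adjusted p = 0.217). In Lexogen NFKBIA and REL were called in the first run (1.89 and 1.55, with 3.29% of 11532 genes called higher) and 0 of the 10 in the second, where 0 of 11459 genes were called by edgeR and 1275 had an unadjusted p under 0.05. The run by time interaction called 0 of the 10 genes in Lexogen by edgeR or DESeq2 (2 had an unadjusted p under 0.05 in either). Over all 13484 genes edgeR called 0.0222% and gave 1060 an unadjusted p under 0.05. Of the 10 genes NFKBIZ had the largest value (-1.40, SE 0.55, adjusted p = 0.47). Runs differ in animals as well as in sample numbers, and these cannot be told apart.

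**Figure D3:**
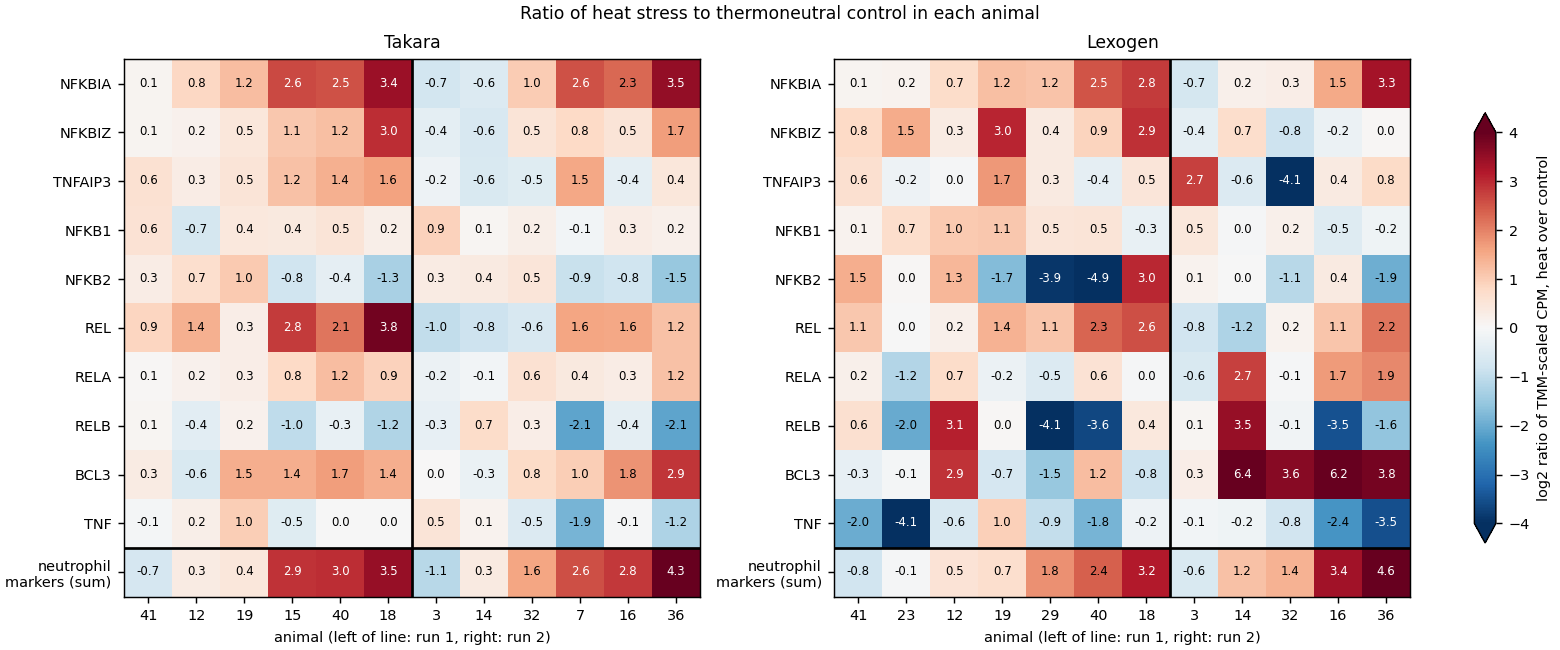
log2 ratio of heat stress to control within each animal, from TMM-scaled CPM, for the 10 genes (rows) and for the sum of 8 neutrophil markers (bottom row), with Takara left and Lexogen right. Columns are animals, ordered by run and then by the neutrophil ratio, and the colour scale ends at 4 in either direction. NFKBIA runs in Takara from -0.7 in animal 3 to 3.5 in animal 36, and NFKB2 is below 0 in the 6 Takara animals with a neutrophil value over 2.

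Neutrophil markers moved in the same animals. The ratio of their summed level within an animal ran from 0.47 in animal 3 to 19.3 in animal 36 in Takara, the 2 animals with the lowest and the highest NFKBIA ratio. In the 10 Takara pairs where NFKBIA was higher the median neutrophil ratio was 6.53, and in the 2 pairs where it was not the ratios were 0.47 and 1.27. For NFKB2 the order in Takara was the opposite. The 6 Takara pairs where NFKB2 was lower in heat stress had neutrophil ratios from 5.98 to 19.3, and the 6 pairs where it was higher had ratios from 0.47 to 3.01. Lexogen did not show this split, with neutrophil ratios from 1.599 to 24.9 in the 6 pairs where NFKB2 was lower and from 0.59 to 10.4 in the 6 where it was higher. RELB was lower in 8 Takara pairs, with a median neutrophil ratio of 7.27, and higher in 4, with a median of 1.32. NFKBIA did not follow the neutrophil ratio in every animal. Animal 41 had a neutrophil ratio of 0.63 and an NFKBIA ratio of 1.08, and animals 12 and 14, both with a neutrophil ratio of 1.27, had NFKBIA ratios of 1.77 and 0.68. The T cell markers summed to between 928 and 2023 CPM in Takara controls and between 378 and 1695 CPM in heat stress, and their ratio was above 1 in 2 of 12 pairs. The part of these cell markers in the differences of the 10 genes was not tested.

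Whether the kits gave the same difference between times was asked in the 24 RNA samples sequenced with both. The interaction of kit and time called 0 of the 10 genes and 0 of 13354 genes by edgeR, and 526 genes had an unadjusted p under 0.05, none of them a member. For NFKBIA the kits differed by 0.01 on the log2 scale (SE 0.14), and for REL by -0.05 (SE 0.22), Takara minus Lexogen. For genes with few Lexogen reads the difference was poorly determined, at -0.78 (SE 0.61) for BCL3, -0.09 (SE 0.72) for NFKB2 and 0.90 (SE 0.49, unadjusted p = 0.0753) for TNF. Among the 10 animals with both times in both kits, the kits gave the same direction in 9 animals for NFKBIA and REL, 7 for NFKBIZ and TNF, 6 for TNFAIP3, RELA and RELB, and 5 for NFKB1, NFKB2 and BCL3.

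The level of the same gene differed between kits on the same RNA. In the 12 control RNA samples with both libraries, 7 of the 10 genes were called between kits, where 64.2% of 12386 genes were (36.6% higher in Takara and 27.6% lower). Takara gave lower values for REL (log2 fold change -2.22, SE 0.15, edgeR adjusted p = 1.57e-09), NFKBIA (-1.25, SE 0.10, adjusted p = 1.78e-08) and NFKBIZ (-0.84, SE 0.25, adjusted p = 0.00774). It gave higher values for BCL3 (3.12, SE 0.48, adjusted p = 2.37e-05), NFKB2 (1.48, SE 0.34, adjusted p = 0.000947), NFKB1 (0.48, SE 0.14, adjusted p = 0.00658) and RELB (0.79, SE 0.34, adjusted p = 0.0494). TNFAIP3 (-0.32, adjusted p = 0.326), RELA (0.31, adjusted p = 0.237) and TNF (0.44, adjusted p = 0.178) were not called. The BCL3 difference was largest in single RNA samples of the second run. The control RNA of animal 14 gave 123 CPM of BCL3 in Takara and 0.313 CPM, or 2 reads, in Lexogen. That of animal 16 gave 85.2 CPM and 0.392 CPM.

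**Figure D4:**
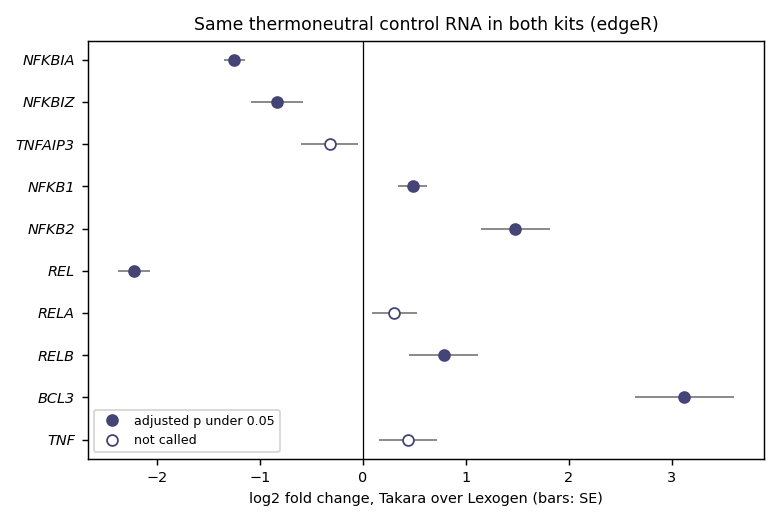
log2 fold change of Takara over Lexogen for the 10 genes in 12 thermoneutral control RNA samples sequenced with both kits, with bars of 1 SE and filled points where the edgeR adjusted p was under 0.05. The values run from -2.22 for REL to 3.12 for BCL3.

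The other genes of the pathway were taken as lists by role, and their counts are to be read against the shares of all genes called higher (18.4% in Takara and 5.09% in Lexogen) and lower (10.5% and 0.459%). Of the other IκB genes, NFKBIB and NFKBIE were not called in either kit. NFKBID, another nuclear IκB, rose in Takara (log2 fold change 0.38, SE 0.14, adjusted p = 0.0371) and was not called in Lexogen (1.91, SE 0.83, adjusted p = 0.214). Lexogen counted few reads on NFKBID, with a median of 1.46 CPM in controls (0 to 3.37) and 1.40 CPM in heat stress (0 to 42.8). Of 17 receptors and adaptors, 5 rose and 1 fell in Takara, and 1 rose and 0 fell in Lexogen. The gene that rose in both was MYD88, the adaptor of Toll-like and interleukin-1 receptors, whose Takara level went from a median of 212 CPM (82.6 to 395) to 445 CPM (150 to 1157), with log2 fold changes of 1.68 in Takara (adjusted p = 0.00115) and 1.41 in Lexogen (adjusted p = 0.00935). Of 10 kinases, 2 rose and 1 fell in Takara, and 0 of the 9 tested were called in Lexogen, close to the shares of all genes. TBK1, a kinase of the interferon pathway that also acts on NF-κB, rose in Takara (0.57, SE 0.15, adjusted p = 0.00683), and the related kinase IKBKE fell (-0.58, SE 0.19, adjusted p = 0.0221). The Lexogen values were 0.71 for TBK1 (adjusted p = 0.42) and 0.39 for IKBKE (adjusted p = 0.832).

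Of 15 negative regulators other than the 10 genes, 7 rose and 0 fell in Takara, and 2 of the 14 tested rose in Lexogen (all genes, 18.4% and 5.09% higher). N4BP1, an inhibitor of NF-κB activation downstream of Toll-like receptors, rose in Takara (1.40, SE 0.30, adjusted p = 0.00151) and in Lexogen (1.22, SE 0.26, adjusted p = 0.00343), and its Lexogen call held when the animal was a block (adjusted p = 0.0321). TNIP1, a binding partner of A20, rose by 0.97 in Takara (adjusted p = 0.00301) and 1.18 in Lexogen (adjusted p = 0.0319). With the animal as a block 3 negative regulators rose in Takara and 1 in Lexogen (all genes, 14.9% and 0.45% higher). Of 24 target genes, 18 passed the filter in Takara and 17 in Lexogen, and 5 and 3 rose while 0 fell (all genes, 18.4% and 5.09% higher). They include TNFAIP6, an inflammation-induced hyaluronan-binding protein, which went from a median of 5.28 CPM (2.33 to 12.5) to 42.2 CPM (3.43 to 99.1) in Takara and had log2 fold changes of 3.29 (adjusted p = 0.000286) and 2.03 in Lexogen (adjusted p = 0.0194). PLEK, a protein kinase C substrate of blood cells, rose by 1.35 in Takara (adjusted p = 0.00553) and 1.08 in Lexogen (adjusted p = 0.00889). IL1RN, the interleukin-1 receptor antagonist, rose by 1.16 in Takara (adjusted p = 0.00259) and 0.94 in Lexogen (adjusted p = 0.0476). IL1B and CXCL8, cytokines of the target list, were not called in Takara, with log2 fold changes of 0.14 (adjusted p = 0.748) and 1.06 (adjusted p = 0.0833). IL1A, IL6, CCL2, CCL3, CCL20 and CSF2 did not pass the filter in either kit. With the animal as a block, 0 target genes and 0 receptors and adaptors were called in Lexogen. In Takara that fit called 6 target genes higher and 0 lower, and 5 receptors and adaptors higher and 1 lower. Of all 12620 genes it called 14.9% higher and 1285 genes lower.

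**Figure D5:**
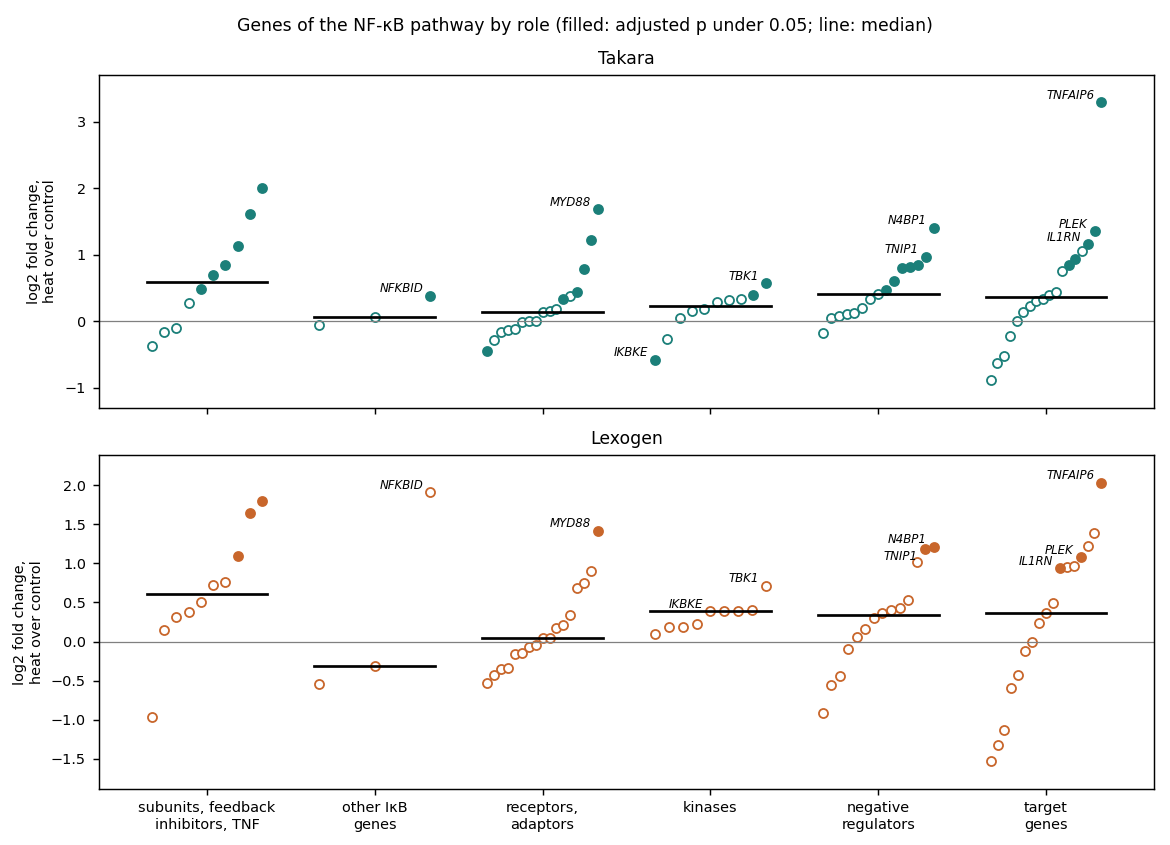
log2 fold change of heat stress over control for each gene of 6 pathway lists in Takara (top) and Lexogen (bottom), with filled points where the edgeR adjusted p was under 0.05, a black line at the median of the list, and the genes named in the text labelled. In Takara TNFAIP6 stands highest at 3.29 and the negative regulators include 7 filled points, all above 0.

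The genes whose Takara levels varied most like NFKBIA, after the mean of each time was taken away, were STAT3, PDK3 and NFAM1 (Pearson r 0.969 each), PPP2R5A (0.968) and TMEM154 (0.966), out of 12619 genes over 26 libraries. In the 26 Lexogen libraries the same genes had r of 0.643, 0.634, 0.755, 0.815 and 0.891 with NFKBIA. The genes most like TNFAIP3 in Takara were HAPSTR1 (0.875), PHF21A (0.852), ATOSA (0.842), RBM47 (0.831) and C22H3orf62 (0.83). In Lexogen only HAPSTR1 of these had an r above 0.5 with TNFAIP3 (0.681), and ATOSA had -0.08. Among the 10 genes themselves, NFKBIA varied with NFKBIZ (0.915), RELA (0.892), BCL3 (0.835) and REL (0.809) in Takara, and inversely with NFKB2 (-0.583). In Lexogen the r with NFKBIA was 0.449 for NFKBIZ, 0.536 for RELA, 0.337 for BCL3 and 0.698 for REL. For NFKB2 it was 0.0864 there, so the inverse relation was not seen in that kit. The points are libraries that share animals, depth and cell composition, so these values describe the libraries and carry no test.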

How the data were processed

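Whole blood RNA of the calves was sequenced as 3′ mRNA libraries of 2 kits. Per the study's methods, the authors used Trimmomatic 0.39 on the forward reads and STAR 2.7.10b to align them to the ARS-UCD2.0 assembly. They deposited STAR's raw counts of reads per gene, not normalized, in 3 columns (strand ignored, sense strand, antisense strand). FastQC 0.11.9 and MultiQC 1.14 are also named in the submitters' processing notes. The unstranded counts were used, without the 4 totals of reads outside genes. Symbols, gene positions and overlaps came from RefSeq (30271 of 32637 gene IDs matched).

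CPM is the count per 1000000 counts on genes. Groups came from the sample labels. Heat stress was compared with thermoneutral control in each kit with edgeR 4.0.16 in R 4.3.3 (filterByExpr with its defaults, TMM scaling, quasi-likelihood test, Benjamini-Hochberg over all genes tested, adjusted p under 0.05), with time as the only term, as in the study's model. SE is the log2 fold change over the square root of the F statistic. The kit comparisons had the RNA sample as a block. The alternatives were DESeq2 1.42.0 on all expressed genes, size factors by relative log expression (RLE), total counts, no filter, the sense counts, the animal as a replicate block, run as a covariate or alone, animal 20 in either group and leaving out each animal. Animal numbers pair the libraries because they name the same calf. The deviations of the 2 libraries of a calf from the group means correlated with a median r of 0.232 in Takara (11 of 12 over 0.1) and 0.0208 in Lexogen (2 of 12). Animal 20 was left out because its label and the sample table, read in order of animal number, disagree on its time. That reading also differs from the labels for animals 7, 15, 23 and 29, which kept the times in their labels. It thus differs for every calf that lacks a library and cannot be checked for the others.

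The 10 genes and all lists were chosen with earlier results of these data known. Genes named from a list were up to 3 with the largest log2 fold change in Takara among those called in the same direction in both kits, or else the 2 largest called in Takara; NFKBIB, NFKBIE, IL1B, CXCL8 and the targets that did not pass the filter were named after their values were seen. The test of time alone was tried on simulated counts, with a small part of the genes changed equally up and down. Those counts held no pairing of animals and no shift in cell composition, so the trial does not cover these conditions. The dispersion of each simulated gene was also capped, so the trial does not cover genes more variable than that cap. There are no molecular identifiers, and a count is of reads rather than molecules.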

Additional observations from a re-analysis of the deposited data

Results flagged for a closer look

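Animal 20 had 1 library per kit that entered no comparison. Its label and the study's sample table, read in order of animal number, give different times. Its values are given here as a signal outside the main comparison that lay above the highest thermoneutral control library of the same kit. In Takara this held for NFKBIA (583 CPM), BCL3 (308 CPM), RELA (98.6 CPM), REL (86.4 CPM), NFKBIZ (37.7 CPM) and TNFAIP3 (26.2 CPM). In Lexogen it held for NFKBIA (1646 CPM), REL (542 CPM), RELA (125 CPM), NFKB1 (104 CPM), BCL3 (74.6 CPM) and TNFAIP3 (31.9 CPM). The share of all genes that lay above every control in these libraries was not counted. The Takara BCL3 value and the Lexogen REL, RELA and TNFAIP3 values also exceeded every heat stress library of the kit. NFKB2, RELB and TNF of animal 20 (6.24, 5.04 and 6.13 CPM in Takara) lay below the lowest Takara control on unscaled CPM. On TMM-scaled CPM NFKB2 (9.27) still did, while RELB (7.48) and TNF (9.11) lay within the range of the controls. These values were not used to place the animal in a group.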

How the results depend on the processing

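Without counting the fits that leave out an animal, 265 log2 fold changes under an alternative kept direction and side of the threshold, 32 lost their call and 13 changed sign. The number of the 10 genes called in Takara was 6, and 0 in the second run alone and 0 with animal 20 as a control. In the latter fit edgeR called 0 of 12652 genes. There 4 of the 10 and 3804 of all genes had an unadjusted p under 0.05. The number called in Takara lay between 5 and 6 when an animal was left out. In Lexogen it was 3, and 0 with the animal as a replicate block, 0 in the second run alone and 0 with animal 20 as a control. It lay between 1 and 3 when an animal was left out, with 1 without animal 36 or 40. The animal as a replicate block took the call of NFKBIZ and TNFAIP3 in Takara and of NFKBIA, REL and BCL3 in Lexogen, and changed no other call of the 10 genes. TNFAIP3 in Takara also lost its call with total counts as library size (0.35, adjusted p = 0.206), with animal 20 as a control (0.48, adjusted p = 0.235), without a filter (adjusted p = 0.0531), with sense counts (0.0518) and with run as a covariate (0.0576). RELB lost the call between kits with sense counts (adjusted p = 0.0743). DESeq2 called 6 genes in Takara and 3 in Lexogen. Values that changed sign were all of genes not called. In the first run alone they were NFKB2 (0.016) and TNF (0.034) in Takara. In the second run alone they were NFKBIZ (-0.14), NFKB1 (-0.027), NFKB2 (-0.022) and RELB (-0.60) in Lexogen. With the block they were NFKB2 (-0.44) and RELB (-0.59) in Lexogen, and Lexogen RELB was also -0.021 with total counts, -0.033 with run as a covariate and between -0.40 and 0.30 when an animal was left out (below 0 without animal 12). With sense counts the kit by time values of NFKB1 (0.024), NFKB2 (0.011) and REL (0.046) changed sign. The causes were not tested. In Lexogen single libraries held only 1 to 3 reads of NFKB2, RELB, TNF and BCL3, and the values of these genes there are poorly determined.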

Other observations

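Low Lexogen values of RELA and BCL3 fell in the same control libraries. The lowest and second lowest RELA values in Lexogen controls were those of animals 14 (12.0 CPM) and 16 (25.5 CPM), and the same 2 libraries were lowest for BCL3. In Takara the same control RNA gave 85.8 and 91.3 CPM of RELA, among the higher controls. Over the 26 Lexogen libraries RELA and BCL3 varied together (Pearson r 0.761, time means removed), while NFKBIA and REL had 0.698 and RELA and REL 0.00. These are descriptions of libraries that share animals and depth, with no test. Animal 3 had a TNFAIP3 ratio of 6.73 in Lexogen, from 1.38 to 11.2 CPM, and 0.87 in Takara, where its control was at 9.76 CPM.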
